A study of Mus musculus with 23 samples.

Results

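Elastic fibres give connective tissue its recoil, and 10 genes of this fibre system were followed in the head of the mouse pancreas during recovery from acute pancreatitis. They are a named set of genes for elastin, a fibrillin, fibulins, microfibril-associated proteins, an emilin and lysyl oxidase, drawn up with earlier results of these data known, and all 10 were among the 18512 gene symbols counted. The mice were C57BL/6 of both sexes, 6 to 8 weeks old and weighing 20 to 25 g. At baseline they were non-injured (n = 8, 4 female and 4 male). The post-injury mice had received caerulein, a cholecystokinin analogue that overstimulates the acinar cells, by hourly intraperitoneal injection of 50 µg/kg, 8 times a day for 2 days. Tissue was taken at day 7 (n = 8, 4 female and 4 male) or at day 14 (n = 7, 3 female and 4 male), counted from the day after the last injection. Each mouse gave 1 library of total RNA depleted of ribosomal RNA, and the baseline mice are the controls of both post-injury days. The authors left out a day 14 female for poor mapping. By their mapping statistics, the day 14 libraries used had more reads in coding exons than every baseline and day 7 library. They also had fewer in 5' untranslated regions. Effects of these library differences on the day 14 comparisons were not tested.

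Elastic fibres are built in steps outside the cell. Fibrillin monomers assemble into microfibrils, to which microfibril-associated proteins bind, and tropoelastin, the soluble precursor encoded by *Eln*, is deposited on this scaffold with the help of fibulins. Lysyl oxidases then join the tropoelastin molecules by covalent cross-links. The main makers of elastic fibres are fibroblasts and smooth muscle cells, and in the pancreas the fibres lie in vessel walls, around ducts and in the septa between lobules.

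The counts per mouse summed to between 7059890 and 9567446, with 14641 to 16653 symbols detected. Values are given as CPM, the counts of a gene relative to the total of the tested genes after scaling by TMM factors. The acinar enzyme gene *Cpa1* had 279299 or more counts in each mouse. The gut epithelial markers were near 0, with at most 19 counts of *Vil1* and 3 of *Fabp2* in any mouse. Some libraries stood apart in markers of other cell types. The mean log2 CPM of the lymphocyte list was above 1 in 5 mice (baseline mouse 5, day 7 mice 10 and 15, day 14 mice 19 and 21), and mice 5, 10, 15 and 19 had the 4 highest smooth muscle values. Results that lead the text are given with and without them.

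The pair with the highest levels per kb of exon, *Fbn1* and *Fbln2*, each have a single start in the RefSeq promoter table for GRCm38.p6, which holds 6 of the 10 genes, and the 250 bases before these starts are shown to place them in the genome. For *Fbn1* they lie at chr2:125506439-125506688 on the minus strand, and for *Fbln2* at chr6:91212514-91212763 on the plus strand. Both windows lie inside the span that GENCODE gives for the gene. Capitals mark the letters GGGCGG, or CCGCCC for a match on the other strand.
Fbn1 upstream: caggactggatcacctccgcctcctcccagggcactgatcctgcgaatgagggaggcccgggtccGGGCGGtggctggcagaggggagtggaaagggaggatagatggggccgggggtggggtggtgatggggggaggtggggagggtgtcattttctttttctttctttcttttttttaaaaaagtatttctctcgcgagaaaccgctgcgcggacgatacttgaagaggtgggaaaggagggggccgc
Fbln2 upstream: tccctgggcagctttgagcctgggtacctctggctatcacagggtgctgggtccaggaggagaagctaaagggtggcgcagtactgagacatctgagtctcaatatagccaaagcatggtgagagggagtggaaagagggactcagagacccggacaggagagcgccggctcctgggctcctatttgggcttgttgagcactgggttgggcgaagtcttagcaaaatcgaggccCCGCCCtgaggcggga

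Each of these windows held 1 match to the GC box GGGCGG. Neither held the TATA box TATAAA, the CCAAT box CCAAT or the AP-1 letters TGAGTCA on either strand. Of 32851 promoter windows of the same length, 32.7% held GGGCGG, 12.4% TATAAA, 33.8% CCAAT and 4.46% TGAGTCA. Among the 9 windows of the 6 genes in the table, 5 held GGGCGG and 2 held CCAAT, while 0 held TATAAA or TGAGTCA. These are letter matches only.

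The elastic fibre genes tested were all higher at day 7, and part of them passed the thresholds given below. Low counts kept 2 of the 10 out of the test; of the other 8, 4 were differentially expressed genes (DEGs) at day 7: *Mfap5*, *Lox*, *Eln* and *Fbn1*, which rose 2.26-, 2.09-, 1.83- and 1.71-fold. A DEG had an adjusted p of at most 0.05 in edgeR's quasi-likelihood test and a fold change of at least 1.5. Of all 12195 genes tested, 3.82% were DEGs with higher counts at day 7; since the set was drawn up with results known, this share is given as background only. The median log2 fold change of the 8 genes was 0.76, against 0.022 for all genes tested. The 4 calls held without the 5 mice high in lymphocyte markers and without the 4 high in smooth muscle markers, with log2 fold changes of 1.21 and 1.23 for *Mfap5*, 1.09 and 1.08 for *Lox*, 0.91 and 0.91 for *Eln*, and 0.87 and 0.88 for *Fbn1*. All 8 were higher at an unadjusted p under 0.05 in edgeR, which 3925 of the 12195 genes had in either direction. By the adjusted p alone, 6 of the 8 were higher, against 8.86% of all genes. At day 14 the 8 log2 fold changes against baseline were above 0, with a median of 0.36 against 0.0062 for all genes, and 0 were DEGs by edgeR.

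**Figure D1:**
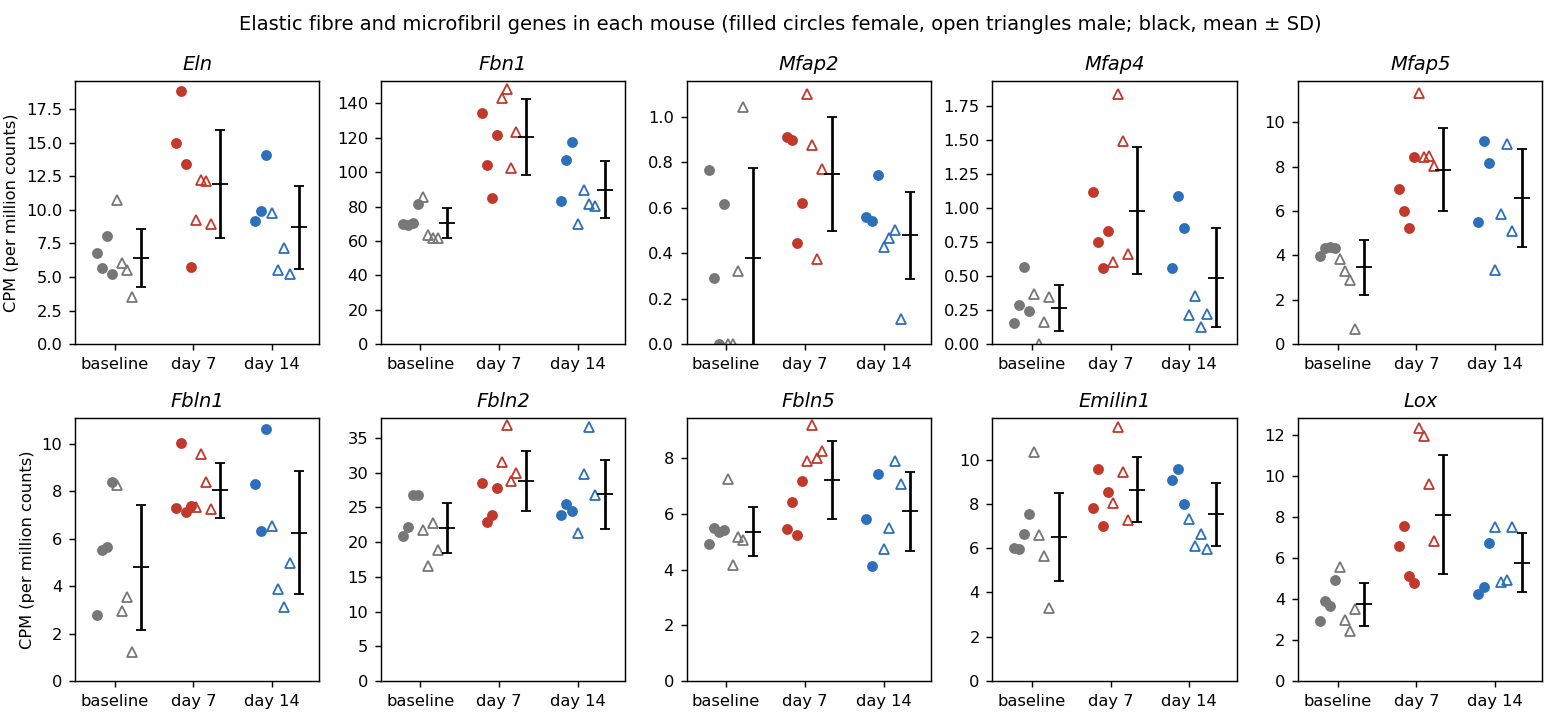
CPM of each of the 10 genes in each mouse by time point, with axes from 0; circles are females, triangles males, and the black mark gives the group mean ± SD, cut off at 0 for *Mfap2*. *Mfap5* shows no overlap between baseline and day 7, where the highest baseline mouse had 4.37 CPM and the lowest day 7 mouse 5.24.

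The scaffold of the microfibril is fibrillin-1, encoded by *Fbn1* (chr2:125300594-125507993, minus strand, 65 exon blocks). Its level at baseline ranged from 61.5 to 85.4 CPM with a median of 69.8, at day 7 from 84.9 to 149 with a median of 123, and at day 14 from 69.8 to 118 with a median of 83.3. At day 7, 7 of 8 mice lay above every baseline mouse, the exception being mouse 11, and at day 14, 3 of 7 did. Baseline mice averaged 70.5 ± 8.88 CPM (SD, n = 8). The day 7 mean was 120.3 ± 21.9 (SD, n = 8), and the day 14 mean 89.9 ± 16.7 (SD, n = 7). *Fbn1* rose at day 7 by 0.77 on the log2 scale (standard error 0.11, adjusted p = 6.18e-05); standard errors were derived from the test. At day 14 its log2 fold change from baseline was 0.35 (standard error 0.12, adjusted p = 0.155). Exons of a gene on the other strand, *Gm9913*, cover 20.1% of the exonic bases of *Fbn1*. The strand setting of the counting is not given in the sources used here, so that reads of both could be mixed.

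Microfibril-associated proteins decorate the fibrillin scaffold, and the 3 measured differed in level. *Mfap5* (chr6:122505845-122529290, plus strand) encodes MAGP-2, which binds fibrillin. It had 0.696 to 4.37 CPM at baseline (median 3.91), 5.24 to 11.3 at day 7 (median 8.23) and 3.33 to 9.14 at day 14 (median 5.86). All 8 day 7 mice and 6 of 7 day 14 mice were above every baseline mouse. Among the 8 tested genes *Mfap5* alone showed no overlap between day 7 and baseline, and across all genes tested 1.16% lay fully above baseline at day 7. No elastic fibre gene did so at day 14, against 0.435% of all genes. *Mfap5* rose by 1.17 on the log2 scale at day 7 (standard error 0.24, adjusted p = 0.00135), and at day 14 its value was 0.91 (standard error 0.25, adjusted p = 0.0656). Baseline mouse 8, with 4 counts, was far below the other baseline mice. Without that mouse the log2 fold change of *Mfap5* was 1.02 (adjusted p = 8.77e-04) at day 7 and 0.76 (adjusted p = 0.0646) at day 14.

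*Mfap2*, which encodes MAGP-1 (chr4:141010418-141015984, plus strand), and *Mfap4* (chr11:61485431-61488900, plus strand), whose product binds elastin and collagen, had too few counts to enter the test. A count of 0 in these libraries allows up to 3 counts, or 0.314 to 0.425 CPM by total count. *Mfap2* had 0 to 6 counts at baseline (median 2, with 0 in 3 mice), 4 to 12 at day 7 (median 8) and 1 to 7 at day 14 (median 4). *Mfap4* had 0 to 4 counts at baseline (median 2), 5 to 21 at day 7 (median 9) and 1 to 10 at day 14 (median 3). In raw counts every day 7 mouse had more *Mfap4* counts than any baseline mouse, but after scaling 7 of 8 did. In a fit of all 18512 symbols, *Mfap4* rose by 1.86 on the log2 scale at day 7 (standard error 0.45, adjusted p = 0.00573), and at day 14 its value was 0.81 (adjusted p = 0.567). In that fit 2.61% of the symbols were DEGs with higher counts at day 7. *Mfap2* had 1.01 (standard error 0.50, adjusted p = 0.218) at day 7 and 0.38 (adjusted p = 0.879) at day 14, differences not detectable at this depth.

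Elastin is the core of the mature fibre. *Eln* (chr5:134702593-134747323, minus strand) had 3.48 to 10.7 CPM at baseline (median 5.86), 5.72 to 18.8 at day 7 (median 12.2) and 5.19 to 14.0 at day 14 (median 9.19). The groups overlapped: 5 of 8 day 7 mice and 1 of 7 day 14 mice were above every baseline mouse. The highest mouse of each group was mouse 5 at baseline, mouse 10 at day 7 and mouse 19 at day 14, which are among the 4 highest in smooth muscle markers. *Eln* rose at day 7 by 0.87 on the log2 scale (standard error 0.23, adjusted p = 0.0111), and at day 14 it had 0.42 (standard error 0.25, adjusted p = 0.495). Without these 3 mice and mouse 15 the day 7 value was 0.91 (adjusted p = 0.00549). The smooth muscle list had 0 DEGs of 4 tested at either day, and its summed level ranged over the mice from 9.05 to 46.2 CPM before injury, from 9.77 to 105 CPM on day 7, and from 8.16 to 76.8 CPM on day 14.

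Lysyl oxidase, encoded by *Lox* (chr18:52516067-52529867, minus strand), starts the cross-linking of elastin and collagen by oxidising their lysines. It had 2.42 to 5.55 CPM at baseline (median 3.57), 4.78 to 12.3 at day 7 (median 7.20) and 4.26 to 7.52 at day 14 (median 4.90). At day 7, 6 of 8 mice were above every baseline mouse, and at day 14, 3 of 7 were. *Lox* rose at day 7 by 1.06 on the log2 scale (standard error 0.19, adjusted p = 3.11e-04). At day 14 the value was 0.57 (standard error 0.20, adjusted p = 0.170).

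The fibulins connect elastin to microfibrils and basement membranes, and the 3 measured had day 7 log2 fold changes from 0.37 to 0.74. *Fbln2* (chr6:91212455-91272540, plus strand) was the fibulin with the highest level, at 16.5 to 26.8 CPM at baseline (median 21.9), 22.9 to 36.9 at day 7 (median 28.7) and 21.3 to 36.5 at day 14 (median 25.5). *Fbln5* (chr12:101746565-101819055, minus strand), which binds tropoelastin and lysyl oxidase-like enzymes, had 4.17 to 7.27 CPM at baseline (median 5.26), 5.24 to 9.21 at day 7 (median 7.55) and 4.13 to 7.91 at day 14 (median 5.83). Both had an adjusted p below the threshold at day 7 but a change of less than 1.5-fold. The log2 fold change was 0.37 for *Fbln2* (standard error 0.11, adjusted p = 0.0179) and 0.41 for *Fbln5* (standard error 0.13, adjusted p = 0.0317). *Fbln1* (chr15:85205949-85286535, plus strand), a fibulin of elastic fibres and basement membranes, varied most of the 8 tested genes among baseline mice, with 1.22 to 8.40 CPM (median 4.53), against 7.13 to 10.04 at day 7 (median 7.35) and 3.14 to 10.6 at day 14 (median 6.31). Its coefficient of variation was 54.7% at baseline and 14.4% at day 7. At day 7 *Fbln1* was 0.74 above baseline on the log2 scale (standard error 0.26, adjusted p = 0.0535), and DESeq2 called it (0.76, adjusted p = 0.0207). Without the 5 mice high in lymphocyte markers it was 0.87 (adjusted p = 0.0246), which passed both thresholds.

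Emilin-1, encoded by *Emilin1* (chr5:30913402-30921277, plus strand), is found at the interface of elastin and microfibrils. It had 3.31 to 10.4 CPM at baseline (median 6.29), 7.02 to 11.5 at day 7 (median 8.27) and 5.96 to 9.57 at day 14 (median 7.31). Only day 7 mouse 14 was above every baseline mouse, and the log2 fold change at day 7 was 0.40 (standard error 0.15, adjusted p = 0.0646). At day 14 *Emilin1*, *Fbln1*, *Fbln2* and *Fbln5* had log2 fold changes of 0.20, 0.36, 0.26 and 0.16, with adjusted p-values of 0.660, 0.637, 0.303 and 0.706.

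**Figure D2:**
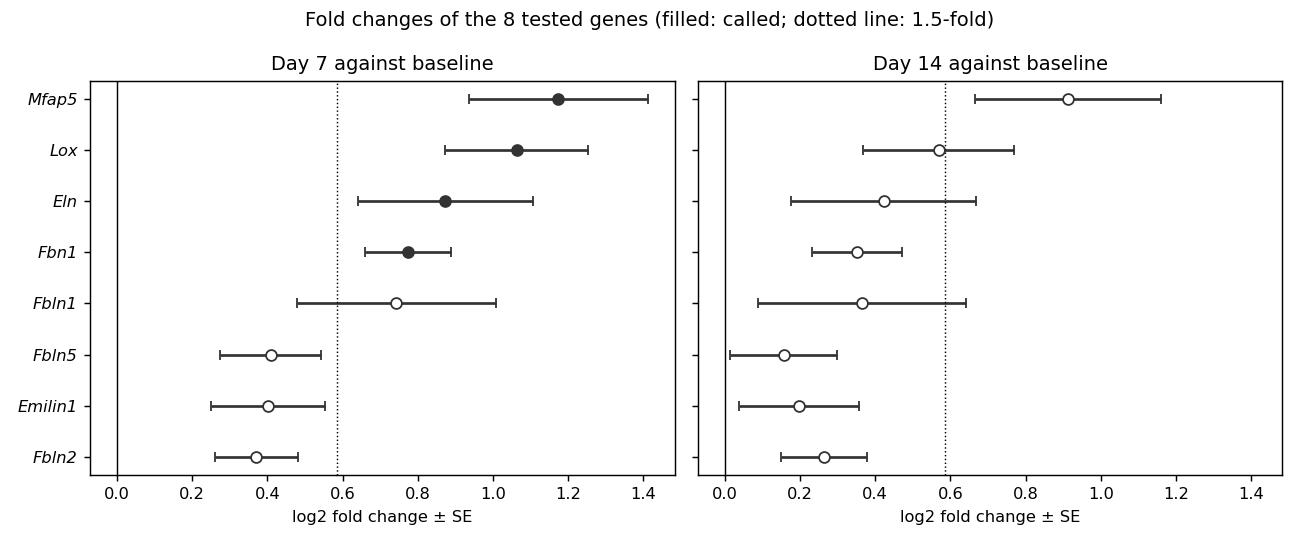
Log2 fold changes of the 8 tested genes against baseline, with the standard error as bars; filled points are DEGs and the dotted line marks 1.5-fold. The 4 DEGs at day 7 have values from 0.77 to 1.17, and at day 14 the 8 values lie between 0.16 and 0.91 with 0 DEGs.

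At day 14 the edgeR test called 0 of the 8 genes, against 0.697% of all genes called higher. In it 4 of the 8 had an unadjusted p under 0.05, as had 1618 of the 12195 genes in either direction. DESeq2 called 1, *Mfap5*, with a log2 fold change of 0.92 (adjusted p = 0.0124). Set directly against day 7, day 14 had log2 fold changes below 0 for all 8 genes, from -0.49 for *Lox* to -0.11 for *Fbln2*, with a median of -0.32 against -0.015 for all genes. In that comparison 0 of the 8 were DEGs by edgeR and 0 by DESeq2, which gave no adjusted p for 4 of them. In edgeR 2 of the 8 had an unadjusted p under 0.05, as had 1721 of the 12195 genes in either direction. Of all genes 0.172% were called lower. The smallest adjusted p in edgeR was that of *Fbn1*, with -0.42 (standard error 0.12, adjusted p = 0.0694). DESeq2 gave *Fbn1* -0.42 with an adjusted p of 0.0136. Without the 5 mice high in lymphocyte markers the edgeR value of *Fbn1* was -0.51 (adjusted p = 0.0407). Without the 4 high in smooth muscle markers it was -0.55 (adjusted p = 0.0177 in edgeR). Each of these changes was under 1.5-fold. Neither a return to baseline nor a lasting rise was shown by edgeR for single genes at day 14.

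Some genes changed more than others. The ratio of each tested gene to *Fbn1* within a mouse does not depend on the scaling of libraries, and it was computed as the log2 ratio of counts, with 0.5 added to each. For *Fbln2* this ratio averaged -1.68 ± 0.21 in baseline mice (SD, n = 8) and -2.05 ± 0.16 in day 7 mice (SD, n = 8), a difference of -0.37 with an exact permutation p = 0.00202 (0.0261 after adjustment over the 14 ratios tested). *Fbln5* fell relative to *Fbn1* by 0.35 at day 7 (exact permutation p = 0.00373, adjusted p = 0.0261). At day 14 the ratios of *Fbln2* and *Fbln5* to *Fbn1* differed from baseline by -0.06 and -0.18 (exact permutation p = 0.696 and 0.305). The *Mfap5* ratio was 0.52 higher at day 7 and 0.64 higher at day 14, which did not pass the adjustment (exact permutation p = 0.0205 and 0.0140, adjusted p = 0.0718 and 0.0653). For *Eln* the ratio at day 7 differed from baseline by 0.11 (exact permutation p = 0.687), less than its SD among mice of 0.39 at baseline and 0.66 at day 7.

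Levels of different genes can be compared only per length. Per kb of exon in GENCODE, *Fbn1* had the highest level at baseline, with 5.81 ± 0.73 CPM per kb (SD, n = 8), followed by *Fbln2* with 3.46 ± 0.56, and the mice of these genes did not overlap with each other or with the next gene. *Emilin1* (1.32), *Fbln1* (1.10), *Mfap5* (0.967), *Eln* (0.793), *Lox* (0.781) and *Fbln5* (0.775 CPM per kb) came next, and neighbours in this order overlapped between mice. *Mfap2* and *Mfap4* were lowest, with 0.314 and 0.139 CPM per kb. After injury *Mfap5* took the third place, with 2.19 ± 0.52 CPM per kb on day 7 (SD, n = 8) and 1.84 ± 0.62 CPM per kb on day 14 (SD, n = 7). The order rests on the length used. The same counts, reads in untranslated regions included, were also divided by the coding length alone. This raises genes with long untranslated regions, such as *Mfap5* with 492 coding bases of 3589 exonic bases. So computed, *Mfap5* was second at baseline with 7.05 CPM per kb. At day 7 it was first with 15.99, ahead of *Fbn1* with 14.0. Of the counts of all 10 genes, *Fbn1* took on average 57.3% at baseline, 59.2% at day 7 and 56.4% at day 14.

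**Figure D3:**
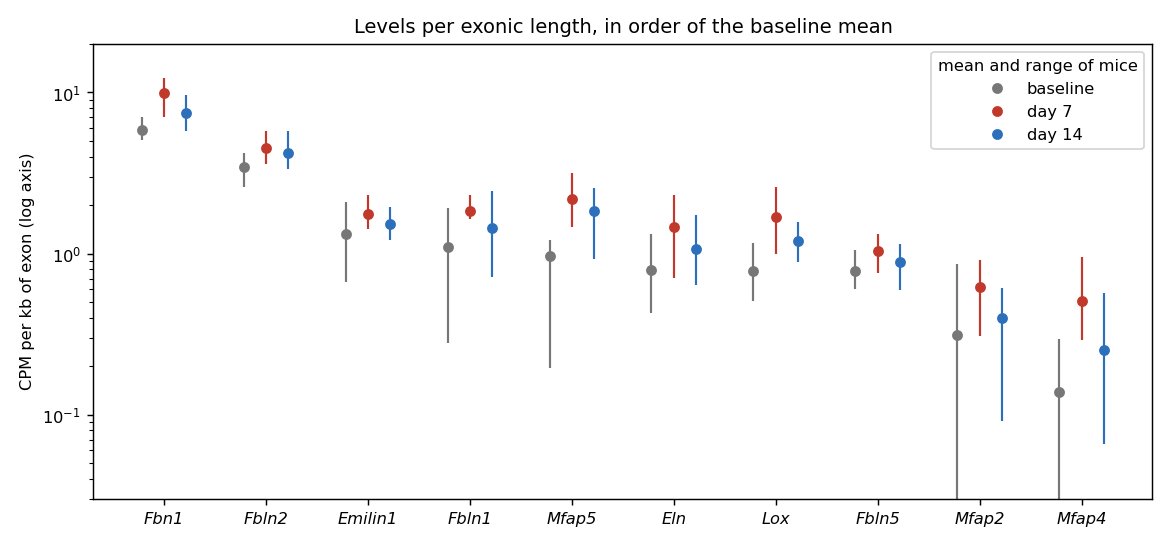
CPM per kb of exon on a log axis for the 10 genes, ordered by the baseline mean; points are group means and lines the range of the mice, which run off the axis where a mouse had 0. *Fbn1* and *Fbln2* lead at each time point, with 9.92 and 4.52 CPM per kb at day 7.

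Sex was compared over all days with the time point as a covariate. None of the 8 genes was a DEG between females and males by edgeR or DESeq2 (0 of 8, against 0.23% of all genes). At an unadjusted p under 0.05 in edgeR, which 1097 of the 12195 genes had, there was 1 of the 8. That gene was *Lox*, whose female-to-male difference was -0.36 on the log2 scale (standard error 0.16, adjusted p = 0.460). The interaction of sex with day 7 passed the adjusted p for 0 of 9 genes tested in edgeR's fit by sex and day, for which *Mfap4* had enough counts, against 0.00773% of all genes, and with day 14 for 0 of 9 against 0%. DESeq2 also gave 0 for both. Over the 12933 genes of the edgeR fit by sex and day, 705 had an unadjusted p under 0.05 for day 7 and 473 for day 14. Among the 9 genes the counts were 3 and 1. The 3 were *Fbln2*, *Mfap5* and *Lox*, with interaction values of -0.58, -1.08 and -0.84 on the log2 scale (adjusted p = 0.672, 0.881 and 0.909). For *Lox* females averaged 3.86 ± 0.84 CPM at baseline and 6.02 ± 1.30 at day 7, and males 3.60 ± 1.37 and 10.2 ± 2.53 (SD, n = 4 each). For *Fbln2* the means were 24.2 ± 3.09 and 25.8 ± 2.74 CPM in females and 19.9 ± 2.84 and 31.8 ± 3.58 in males (SD, n = 4 each). Of the 9 day 7 interaction values 1 was above 0, and their median was -0.47. Taken by sex, the day 7 DEGs were *Fbn1* in females and *Mfap4*, *Mfap5*, *Lox*, *Fbn1*, *Fbln2* and *Fbln5* in males. Of all 12933 genes in that fit, 123 were called higher in females and 373 in males. Such separate calls do not test a difference between the sexes. A difference between the sexes in the response was not detectable with 3 or 4 mice of each sex per time point.

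A wider list of 26 elastic fibre genes was examined next to the 10. Of these, 20 were tested, and at day 7 the DEGs were 6 higher and 1 lower. Of all 12195 genes, 3.82% were called higher and 160 genes lower at day 7. The median of the 20 values was 0.28 on the log2 scale. *Loxl3* and *Loxl1*, relatives of lysyl oxidase, rose by 0.85 (adjusted p = 0.0140) and by 0.59 (adjusted p = 0.0102). *Efemp2* and *Efemp1*, encoding fibulin-4 and fibulin-3, rose by 0.83 (adjusted p = 0.0139) and 0.61 (adjusted p = 0.00655). *Bmp1*, a protease that activates lysyl oxidase and trims procollagens, rose by 0.64 (adjusted p = 0.00116), and *Adamts17*, of the microfibril-associated ADAMTS proteases, by 0.78 (adjusted p = 0.0265). *Ltbp3*, which holds latent TGF-β in the matrix, fell by 0.60 on the log2 scale (adjusted p = 7.31e-07), from 39.7 ± 2.89 CPM in baseline mice (SD, n = 8) to 26.2 ± 1.81 CPM in day 7 mice (SD, n = 8). The largest changes that were not DEGs were those of *Vcan* with 0.52 (adjusted p = 0.00976, under 1.5-fold), *Emilin2* with 0.43 (adjusted p = 0.154) and *Loxl2* with 0.40 (adjusted p = 0.111). At day 14 edgeR called 0 of the 20, and the median was 0.22. In that test 5 of the 20 had an unadjusted p under 0.05, as had 1618 of the 12195 genes in either direction. *Ltbp3* passed the adjusted p (-0.31, adjusted p = 0.0194 in edgeR) but not the fold threshold. *Emilin3* had at most 1 count in any mouse.

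Enzymes that can cut elastin were measured in the same libraries. Of the 8 on the list in the files, 6 were tested and 3 were DEGs at day 7, all higher. Of all genes 3.82% were called higher at day 7 and 0.697% at day 14. The list holds no pancreatic elastase (*Cela*) genes. *Cela3b*, one of the acinar markers, was a DEG at day 7 in the lower direction (-0.74, adjusted p = 3.29e-06 in edgeR). *Mmp2*, gelatinase A, rose by 1.16 (standard error 0.13, adjusted p = 6.91e-07), from 8.79 ± 2.43 CPM in baseline mice (SD, n = 8) to 19.7 ± 2.77 CPM (SD, n = 8), with every day 7 mouse above every baseline mouse. *Mmp14*, the membrane-bound activator of pro-MMP2, rose by 1.07 (standard error 0.14, adjusted p = 4.08e-06), also with 8 of 8 mice above baseline. *Ctsk*, cathepsin K, rose by 0.78 (standard error 0.19, adjusted p = 0.00551). By edgeR, 2 of these were DEGs at day 14 as well: *Mmp2* with 0.78 (adjusted p = 0.00165) and *Mmp14* with 0.65 (adjusted p = 0.0171). *Ctss* (1.29, adjusted p = 0.0981), *Mmp9* (-0.27, adjusted p = 0.570) and *Ctsl* (0.18, adjusted p = 0.113) were not DEGs at day 7. The macrophage elastase *Mmp12* had at most 3 counts and the neutrophil protease *Prtn3* at most 2 in any mouse.

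**Figure D4:**
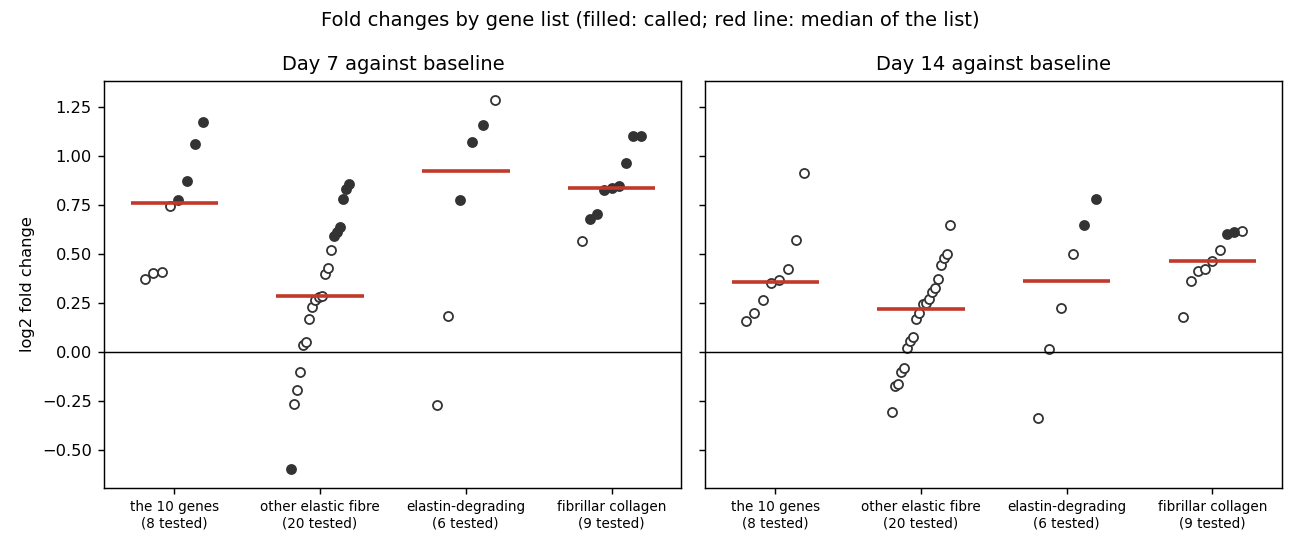
Log2 fold changes against baseline of each tested gene of 4 lists at day 7 and day 14; filled points are DEGs and the red line is the median of the list. At day 7 the medians are 0.76 for the 8 tested elastic fibre genes of the set and 0.28 for the other elastic fibre genes. They are 0.93 for the elastin-degrading enzymes, a list without *Cela* genes, and 0.84 for the fibrillar collagens.

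Of 9 fibrillar collagen and related genes, 8 were DEGs with higher counts at day 7. The 9 values had a median of 0.84 on the log2 scale, and the highest was 1.10 for *Col3a1*. The one that was not a DEG, *Col6a2*, had the lowest, 0.56, which is under 1.5-fold (adjusted p = 8.62e-05). At day 14, 2 were DEGs and the median was 0.46. Of the 8 elastic fibre genes, *Fbln2*, *Emilin1* and *Fbln5* had day 7 values below that of every collagen gene and *Mfap5* one above, and the difference between these lists was not tested.

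Fibroblast markers moved with the time points. None of the 4 tested smooth muscle markers passed the test, though all 4 had day 7 log2 fold changes above 0. Their median was 0.67, against 0.81 for the fibroblast list. They varied widely between mice, with standard errors from 0.55 for *Myh11* to 0.65 for *Acta2*, so that a rise was neither shown nor excluded. Of 10 fibroblast markers, 8 were DEGs at day 7, all higher, and 3 at day 14 (*Dpt*, *Lum* and *Pdgfra*). *Col1a1*, *Col1a2* and *Col3a1* stand in both this list and that of the collagens. The list summed to 340 to 679 CPM in baseline mice, 651 to 1219 CPM in day 7 mice and 545 to 787 CPM in day 14 mice. *Pdgfra*, a marker on this list, had 85 to 181 raw counts at baseline and 262 to 414 at day 7, before any scaling of libraries. Raw counts also carry the depth and make-up of the libraries. Totals were 7059890 to 8868360 at baseline and 8272821 to 9567446 at day 7. The 20 genes with the most counts took 66.4 to 71.2% and 55.3 to 62.8% of them. With TMM scaling the log2 fold change of *Pdgfra* at day 7 was 0.88 (adjusted p = 3.05e-07 in edgeR). *Pdgfrb* and *Clec3b*, on the same list, were not DEGs at day 7, with values of 0.045 and 0.43 (adjusted p = 0.799 and 0.175 in edgeR). In whole tissue, a change in the number of cells of a type and a change in RNA per cell cannot be told apart. With the mean log2 CPM of the fibroblast list as a covariate, 0 of the 8 genes were DEGs at day 7, and *Fbn1*, *Eln*, *Lox* and *Mfap5* had log2 fold changes of 0.20, 0.21, 0.25 and 0.16 (adjusted p = 0.535, 0.842, 0.719 and 0.864). That mean was 4.02 to 4.94 at baseline and 5.04 to 5.56 at day 7, so that fibroblast level and day 7 cannot be told apart in this fit. Macrophage markers rose too, with 7 of 8 as DEGs at day 7 and 0 at day 14 by edgeR (1 with an unadjusted p under 0.05). They summed to 42.0 to 130 CPM in baseline mice, 79.9 to 174 CPM in day 7 mice and 61.1 to 104 CPM in day 14 mice, and their part in the result was not tested. Among the tested genes of the other marker lists, the DEGs at day 7 were 1 lower of 5 pericyte genes, 1 higher of 5 duct genes and 2 higher of 5 islet genes. There were 0 among 6 endothelial, 6 mesothelial, 6 lymphocyte and 4 adipocyte genes, with 3, 1, 0 and 0 at an unadjusted p under 0.05 in edgeR.

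The opposite movement of acinar genes bears on the scaling. The 8 acinar markers took 285823 to 415128 CPM at baseline and 160102 to 248312 at day 7, and 6 of them fell as DEGs with TMM scaling. These CPM include the TMM factors and are not shares of a library. In raw counts the median of *Cpa1* was 359796 at baseline and 295686 at day 7. When libraries were scaled by their total counts, the median log2 fold change of all genes at day 7 moved from 0.022 to 0.48, and all 8 elastic fibre genes were DEGs, with values from 0.82 to 1.63, as were 30.4% of all genes in the higher direction. Over all genes tested, those called lower at day 7 numbered 160 in the main fit and 21 with total count scaling. At day 14 that scaling moved the median of all genes from 0.0062 to 0.22.

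Within time points the elastic fibre genes did not vary as 1 block. Log2 CPM values with the mean of each time point removed were compared over the 23 mice, which share library composition and depth, and the correlations are descriptions. The median Pearson's r over the 28 pairs of the 8 tested genes was 0.39, with 26 pairs above 0 and 9 above 0.5. The closest pair was *Fbln1* and *Emilin1* with r = 0.80, and the least alike were *Eln* and *Fbln2* with r = -0.21. *Eln* varied most closely with *Emilin1* (r = 0.61), *Fbn1* with *Mfap5* (r = 0.57) and *Fbln2* with *Fbln5* (r = 0.58). *Mfap5* was nearest to *Emilin1* (r = 0.61), and *Lox* to *Fbln5* (r = 0.53). *Mfap4* was nearest to *Fbn1* (r = 0.54), as was *Mfap2* (r = 0.21), both at a few counts per mouse.

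The same residuals were set against marker lists. For *Eln*, r with the mean of the smooth muscle list was 0.68, with the adipocyte and pericyte lists 0.53 each, with the fibroblast list 0.52, with the lymphocyte list 0.49 and with the fibrillar collagens 0.29. Without the 4 mice high in smooth muscle markers these values for *Eln* were 0.60 with smooth muscle, 0.31 with adipocytes, 0.28 with pericytes, 0.36 with fibroblasts, 0.087 with lymphocytes and 0.081 with the collagens (n = 19). *Fbn1* had r = -0.01 with smooth muscle, 0.74 with fibroblasts and 0.72 with the collagens, and without these mice -0.24, 0.73 and 0.78. *Fbln2* had r = -0.32 with smooth muscle and 0.66 with the mesothelial list, and *Mfap5* had 0.07 and 0.68. *Fbln1* and *Emilin1* both had r = 0.76 with the fibroblast list, 0.69 and 0.74 with the macrophage list, and -0.70 with the acinar list.

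**Figure D5:**
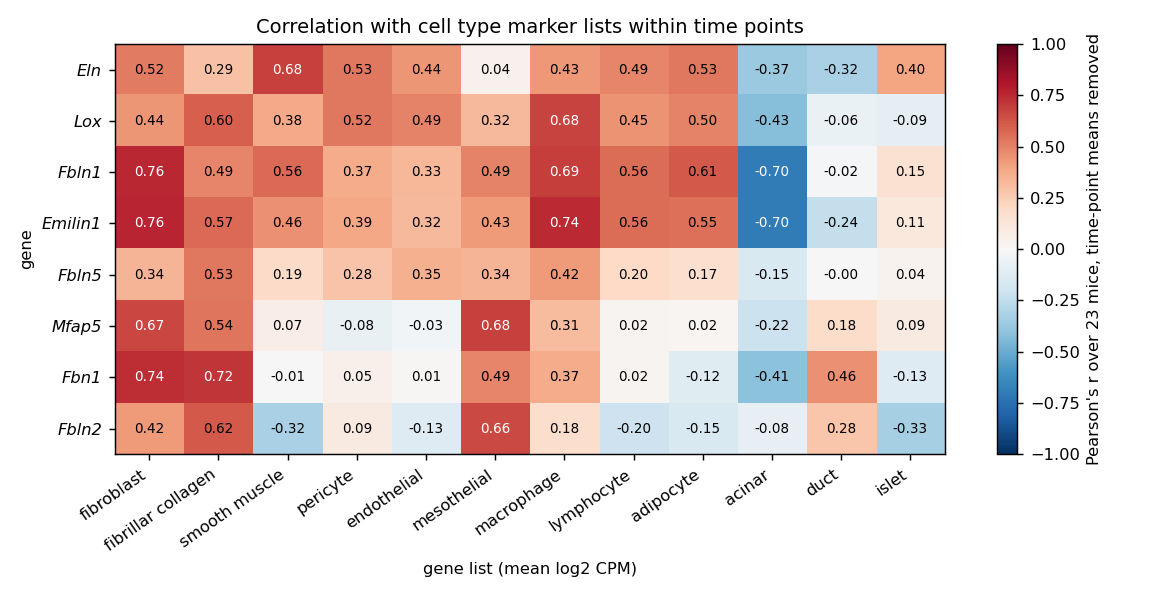
Pearson's r of the 8 tested genes (rows) with the mean log2 CPM of marker lists (columns) over 23 mice after the time point means were removed; blue is below 0 and red above 0. *Eln* has its highest value with smooth muscle (0.68), where *Fbn1* and *Fbln2* have -0.01 and -0.32.

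Outside the 10 genes, the genes that varied most like their mean z-score within time points were *Aebp1*, *Col3a1*, *Zcchc24*, *Fn1*, *Gas7*, *Ephb2*, *Serping1*, *Col1a1*, *Lrp1* and *Lamb1*, with r from 0.88 to 0.79 over 23 mice. Among them *Lamb1*, a laminin chain of basement membranes, rose by 0.60 at day 7 (adjusted p = 8.16e-06). At day 14 it had 0.57 (adjusted p = 2.72e-04), under 1.5-fold. *Col3a1*, *Ephb2*, *Serping1* and *Col1a1* were also DEGs at day 7, and none of these genes was a DEG at day 14. *Aebp1*, which encodes a collagen-binding matrix protein, had the highest r of 0.88, and its log2 fold change at day 7 was 0.41 (adjusted p = 0.219).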

How the data were processed

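Pancreatic head RNA of 23 mice was sequenced after ribosomal RNA depletion with a stranded kit. According to their methods and processing notes, the authors trimmed the reads, aligned them to mm10 with STAR 2.5.2a and counted uniquely mapped fragments per gene with featureCounts; the deposited values are these raw counts per gene symbol. Groups were taken from the labels. Counts were filtered (filterByExpr by time point, 12195 genes), scaled by TMM and tested with edgeR 4.0.16 (R 4.3.3) in a joint fit over the 23 mice that included sex; the fit by sex and day held 12933 genes. P-values are two-sided and Benjamini-Hochberg adjusted over all genes tested. A prior count of 2 entered log2 CPM. Gene positions follow GENCODE vM21 for GRCm38 (mm10). Genes beyond the 10 were named by a rule on calls and on the largest changes within each list. The genes and lists were chosen with earlier results of these data known. The ratios to *Fbn1*, added after seeing the data, used exact two-sided permutation tests. Alternatives were DESeq2 1.42.0, other scalings, filters, thresholds and covariates, and leaving out mice. The tests were tested on simulated data.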

Additional observations from a re-analysis of the deposited data

Results flagged for a closer look

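Among the 30 sets of values formed by the 10 genes and the 3 time points, 2 held a mouse whose gap to its nearest neighbour was large for the range of its group by Dixon's 95% limit, which chance alone gives in about 1 of 20 such sets. *Mfap5* in baseline mouse 8 was the lowest of 8 at 0.696 CPM, and its gap was 0.602 of the range. *Fbln5* in baseline mouse 5 was the highest of 8 at 7.27 CPM, with a gap of 0.569 of the range. Without mouse 5 the day 7 log2 fold change of *Fbln5* was 0.47 (adjusted p = 0.0163 in edgeR).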

How the results depend on the processing

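Of 234 log2 fold changes of single genes under other settings, 205 kept their direction and their side of the DEG thresholds, 14 became DEGs, 4 ceased to be and 11 turned direction. All of the 11, and the 4 lost calls at day 7, came from the fibroblast covariate; the cause was not tested. Under it the day 7 values were -0.38 for *Fbln1*, -0.022 for *Fbln2*, -0.061 for *Fbln5* and -0.36 for *Emilin1*. Against baseline at day 14 they were -0.25 for *Fbln1*, -0.12 for *Fbln5* and -0.23 for *Emilin1*. For day 14 against day 7 they were 0.13 for *Fbln1*, 0.057 for *Fbln2*, 0.14 for *Mfap5* and 0.12 for *Emilin1*. This covariate left 0 elastic fibre DEGs at day 7 and 63, 28 and 13 DEGs in the whole table at day 7, at day 14 and between them, where the main counts were 626, 96 and 46. Total count scaling gave 8, 2 and 3 elastic fibre DEGs and 3727, 449 and 477 over all genes. At day 14 DESeq2 and the fit of only the mice compared each called 1 elastic fibre gene, *Mfap5*. Without the fold threshold 2264, 192 and 157 genes passed. A minimum of 10 counts in every mouse, which drops *Fbln1* and *Mfap5* and leaves 9834 genes, gave 348 at day 7 and 30 between the post-injury days. With each mouse left out in turn the elastic fibre DEGs numbered 4 to 5 at day 7, 0 to 1 at day 14 and 0 between them, and all genes 509 to 815, 65 to 104 and 22 to 57; between the post-injury days there were 23 without day 7 mouse 15, 22 without day 14 mouse 22 and 29 without day 14 mouse 24. *Mfap5* became a DEG at day 14 without day 7 mouse 13 (adjusted p = 0.0486) or day 14 mouse 21 (0.0263), and *Fbln1* at day 7 without baseline mouse 4, baseline mouse 5 (0.00726) or day 7 mouse 11. The adjusted p of *Fbln5* at day 7 passed in 16 of these 23 fits. The comparison of sexes and both interactions kept 0 calls in these fits. Leaving out the 5 mice high in lymphocyte markers or the 4 high in smooth muscle markers, chosen after seeing the data, gave 5 calls each at day 7 and 0 at day 14. Levels per coding length changed the order of genes, and a prior count of 0.5 left the 28 correlations within their error. Depth limits *Mfap2* and *Mfap4*. That the mice are separate animals is given by the labels, and the SDs cover animal and library together.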
